A study of Mus musculus with 6 samples.

Results

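The genes of the receptor complex for lipopolysaccharide (LPS) and of the adapter proteins next to it were examined in stimulated primary osteocytes. The 10 members were chosen by name for this role, namely *Lbp*, *Cd14*, *Ly96*, *Cd180*, *Ly86*, *Myd88*, *Irak2*, *Irak3*, *Ticam1* and *Ticam2*, out of 56748 genes listed, and all 10 passed the filter on low counts. RNA was sequenced from 3 cultures of WT osteocytes and 3 cultures labelled cKO, which were isolated from the long bones of mice with floxed *Gsdmd* alleles and a Cre recombinase driven by the *Dmp1* promoter. The methods describe the WT source as 7-week-old C57BL/6 mice and state that mice were matched for age and sex, while the age for the cKO cultures is not given separately. LPS at 10 ng/mL was given to every culture, WT and cKO alike, and after 3 h aluminum hydroxide, an inflammasome activator, was added at 20 µg/mL for another 3 h. Unstimulated cultures were not used here, so no value measures a response to LPS, and each compares the genotypes after it. The cells came from digested bone fragments after flushing of the marrow and were cultured for 7 days, no sort is described, and Cre expressed from the *Dmp1* promoter acts only in cells that use that promoter. Nothing in the labels says whether replicates came from separate mice, so the p-values measure the spread between these cultures, which may be technical.

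LPS is a component of the outer membrane of Gram-negative bacteria. LBP, a serum protein, lifts it from aggregates and passes it to CD14, which hands it to a complex of the Toll-like receptor TLR4 and the small secreted protein MD-2, the product of *Ly96*. Inside the cell the receptor signals through a pair of adapters, MyD88, which recruits kinases of the IRAK family toward NF-κB, and TRIF, the product of *Ticam1*, which is reached through the bridging adapter TRAM, the product of *Ticam2*, and leads toward interferon genes. CD180 and MD-1, the product of *Ly86*, form a related receptor pair that resembles TLR4 and MD-2 but lacks the intracellular signaling domain, and it is known from B cells, macrophages and dendritic cells.

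The libraries held 39566835 to 49734046 counts on genes, and 17146 genes were tested. *Gsdmd*, the targeted gene, had counts of 609, 699 and 549 in WT against 885, 937 and 1045 under the cKO label, which is against that label, so each direction given here is that of the labels. The count covers the whole gene and does not separate the floxed exons. *Xist*, transcribed from the inactive X chromosome, had at most 4 counts per WT library and 44817 to 51216 per library labelled cKO. The Y-linked *Ddx3y* had 4033 to 5455 in WT and 0 in cKO. This is the pattern of male cells in WT and female cells in cKO, although the methods state that mice were matched for sex. The genotype label and sex therefore cannot be told apart in any comparison below. The osteocyte markers *Sost* and *Dkk1* had 0 counts in every library, *Mepe* had 0 to 2 and *Dmp1*, whose promoter drives the Cre, 0 to 6. Of the same list of 10, *Phex* and *Fgf23* were low, at 2 to 22 and 0 to 34 counts, while *Pdpn* had 7743 to 11932, *Cd44* 17432 to 22284, *Fbln7* 707 to 1212 and *Irx5* 207 to 302. Of 16 macrophage markers 15 were tested, and all 15 were higher in the libraries labelled cKO (median log2 fold change 3.01). Their summed level was 1158 to 1307 CPM (counts of a gene per 1000000 counts of the library, scaled by the TMM method) in WT and 6392 to 6715 CPM in cKO. In bulk RNA of this kind, more cells of a type and more RNA of a gene per cell cannot be told apart, and this holds for every member.

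Most of the LPS receptor genes were higher in the libraries labelled cKO. *Cd180* and *Ly86* differed most, at 9.10-fold and 9.79-fold, *Ticam2* and *Cd14* followed at 3.57-fold and 3.33-fold, and *Irak3*, *Lbp*, *Myd88* and *Irak2* lay between 1.31-fold and 1.85-fold. *Ticam1* was lower, at 0.797 of the WT level, and *Ly96* did not pass the test. At an adjusted p-value below 0.05 in the edgeR quasi-likelihood test, with Benjamini-Hochberg adjustment over all tested genes, 8 of the 10 members rose and 1 fell, where 20.1% of all tested genes rose and 19.2% fell, 39.3% in either direction. With the further demand of a log2 fold change of at least 1, 4 of 10 rose and 0 fell, where 6.56% of all tested genes rose and 4.64% fell. The libraries of the genotypes did not overlap for 9 members, 8 with cKO above and 1 with cKO below, where 25.3% of tested genes had cKO above and 23.9% had cKO below, 49.2% in either direction. The median log2 fold change was 0.79 over the members and 0.0077 over all tested genes. The members were chosen with earlier results of these data known, so these shares describe the set and do not test it.

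**Figure D1:**
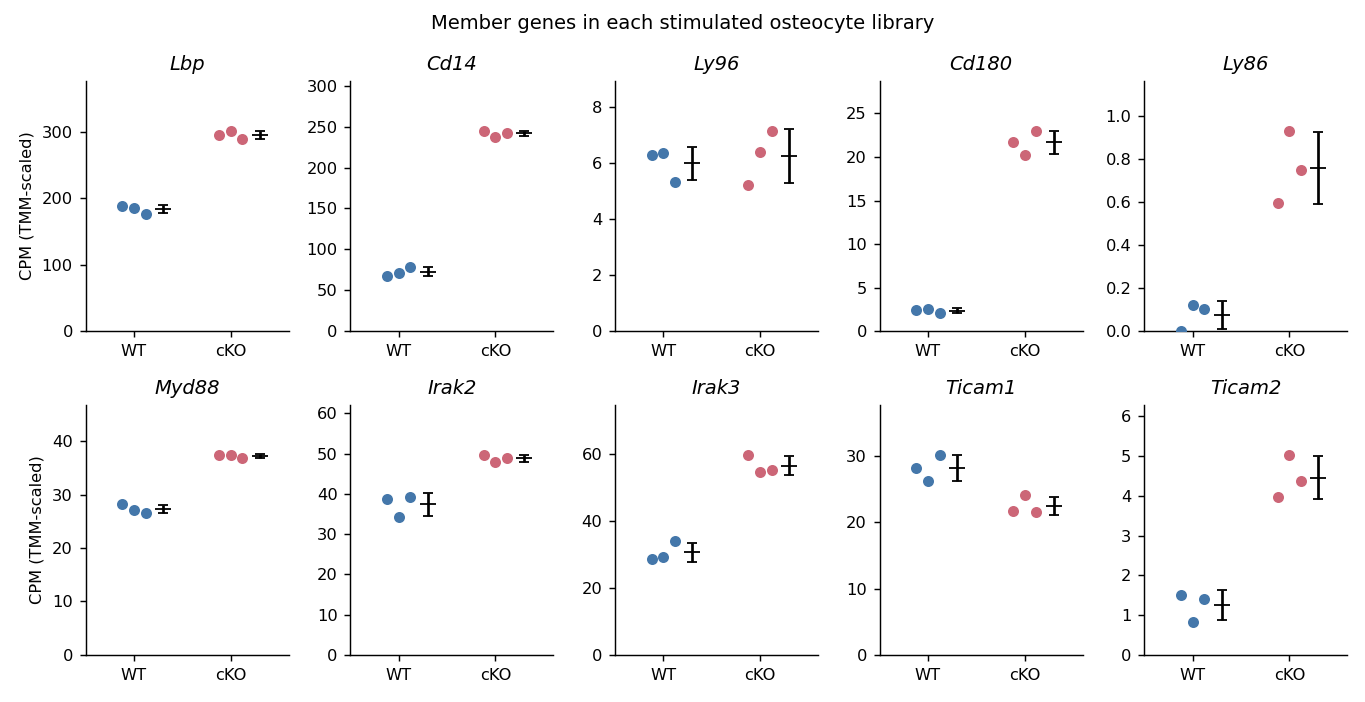
Level of each member in CPM (vertical axes from 0) in the 3 WT and 3 cKO libraries, one point per library, with the mean and SD in black beside them. The points of the genotypes are apart in every panel except *Ly96*, and *Ticam1* is the one member with cKO below WT.

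Among the proteins that capture LPS outside the cell, *Lbp*, on chromosome 2 of GRCm39 from 158148413 to 158174772, was the most counted member. It stood at 188, 186 and 177 CPM in the WT libraries and at 295, 301 and 289 CPM in the cKO libraries. The cKO libraries lay above every WT library with a narrow spread in both groups. The log2 fold change was 0.69 (standard error, SE, 0.041, edgeR adjusted p = 2.57e-10). *Cd14*, on chromosome 18, stood at 67.8, 71.5 and 78.8 CPM in WT and at 245, 238 and 243 CPM in cKO. The lowest cKO library was thus far above the highest WT library, and the coefficient of variation was 7.65% in WT and 1.47% in cKO. The log2 fold change of *Cd14* was 1.73 (SE 0.052, edgeR adjusted p = 2.08e-14), and 655 of the 17146 tested genes had a higher one.

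The subunits of the receptor differed less than *Cd14*, which delivers LPS to them. *Ly96*, which encodes the LPS-binding subunit MD-2 and lies on chromosome 1 from 16758275 to 16779835, stood at 6.31, 6.39 and 5.33 CPM in WT and at 5.23, 6.41 and 7.15 CPM in cKO. The lowest cKO library was below every WT library and the highest above them all, so the groups overlapped. The log2 fold change was 0.06 with a 95% confidence interval from -0.26 to 0.38 (adjusted p = 0.805 by edgeR), which leaves room for a change of that size in either direction. *Tlr4*, the signaling subunit, stood at 63.1, 65.0 and 63.6 CPM in WT and at 84.2, 86.0 and 91.6 CPM in cKO. *Tlr4* was higher in all 3 cKO libraries, with a log2 fold change of 0.45 (SE 0.049, edgeR adjusted p = 8.62e-07).

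*Cd180* and *Ly86*, the receptor pair without a signaling domain, differed most between the genotypes among the 10. Both lie on chromosome 13, *Cd180* from 102830066 to 102876137 and *Ly86* from 37529184 to 37603012. *Cd180* had counts of 112, 127 and 80 in WT and of 916, 806 and 1044 in cKO, or 2.37 ± 0.269 and 21.7 ± 1.36 CPM (SD, n = 3 each). The groups were far apart relative to their spread, and the log2 fold change was 3.19 (SE 0.12, edgeR adjusted p = 4.19e-13). *Mast4*, on the opposite strand over *Cd180*, had a log2 fold change of -0.46, the other direction, and the strand setting of the counting is not stated in the sources used here.

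*Ly86* was counted only 0, 6 and 4 times in WT and 25, 37 and 34 times in cKO. All cKO libraries were above all WT libraries, but at a level where single reads matter. Of all counts from 1 to 10 in a library, 63.4% to 65.7% were even, so these may stand for fewer fragments. The log2 fold change was 3.29 with a 95% confidence interval from 1.85 to 4.73 (adjusted p = 0.000809 by edgeR). Without WT replicate 1, the library with 0 counts, it was 2.70, and without WT replicate 2 it was 3.87. The intervals of *Cd180* and *Ly86* overlapped, and the ratio of *Ly86* to *Cd180* within a library did not separate the genotypes (exact permutation test, two-sided p = 1). That overlap rests on WT replicate 1, where the ratio comes from the 0.5 added to each count. Log2 ratios of counts were -4.29 and -4.16 in WT replicates 2 and 3, above -5.17, -4.43 and -4.92 in cKO. Without WT replicate 1 the difference was -0.61, so the ratio remains undecided.

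The macrophage markers that rose with this pair had log2 fold changes from 2.20 to 4.25, a range that holds the values of both genes and of no other member. Per 100 counts of *Csf1r*, the receptor that macrophages need for survival, *Cd180* had 7.37 to 10.0 counts in WT and 8.63 to 9.61 in cKO. For *Ly86* the corresponding figures were 0 to 0.470 and 0.262 to 0.396. On this scale, chosen after the values were seen, the genotypes overlapped for these genes and not for the other 8, which were lower in every cKO library. *Csf1r* itself had a log2 fold change of 3.17, close to that of *Cd180*, while the markers ran from 2.20 for *Lyz2* to 4.25 for *Fcgr1*. The outcome on such a scale thus depends on the marker taken, and no other marker was used. *Cd14* had 274 to 282 counts per 100 of *Csf1r* in WT and 99.7 to 108 in cKO, and *Ly96* had 19.1 to 25.5 and 2.31 to 2.94. The B cell markers *Cd79a*, *Cd79b* and *Ms4a1* had 0 to 4 counts in every library, and *Pax5* and *Ighm* had 2 to 29 and 10 to 31. *Cd22*, of the same list, was counted 20, 32 and 7 times in WT and 86, 112 and 108 times in cKO, a log2 fold change of 2.47 (edgeR adjusted p = 3.55e-05), and *Ebf1*, which stromal cells also express, had 1482 to 2408 counts and fell by 0.36. The summed level of the B cell list was 45.5 to 52.2 CPM in WT and 35.3 to 44.2 CPM in cKO. The part of the macrophage markers in the difference of any member was not tested.

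The starts of *Cd180* and *Ly86* are shown because these members differed most between the genotypes, and that of *Ticam1* because it was the member that fell. RefSeq promoter windows (annotation of GRCm38.p6) were used for 6 of the 10 members, in 8 windows, and each matched GRCm39 at exactly 1 place. Of each window of 250 bases before the start, the stretch up to the first annotated untranslated exon is printed 5′ to 3′ on the strand of the gene, with matched motif letters in capitals.
Cd180, GRCm39 chr13:102829805-102830040, plus strand: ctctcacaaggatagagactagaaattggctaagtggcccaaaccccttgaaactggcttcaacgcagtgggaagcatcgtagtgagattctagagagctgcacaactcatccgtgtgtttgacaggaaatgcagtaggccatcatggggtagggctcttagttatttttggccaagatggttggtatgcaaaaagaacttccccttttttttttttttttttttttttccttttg
Ly86, GRCm39 chr13:37529071-37529183, plus strand: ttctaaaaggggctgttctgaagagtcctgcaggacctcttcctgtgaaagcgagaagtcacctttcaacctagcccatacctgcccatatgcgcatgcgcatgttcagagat
Ticam1, GRCm39 chr17:56583787-56584017, minus strand: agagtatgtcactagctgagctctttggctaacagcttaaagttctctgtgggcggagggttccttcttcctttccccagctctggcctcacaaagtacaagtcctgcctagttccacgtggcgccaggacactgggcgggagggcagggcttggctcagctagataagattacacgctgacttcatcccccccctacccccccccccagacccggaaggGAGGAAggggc

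The windows were searched on both strands for GAGGAA, a core bound by ETS factors such as the myeloid factor PU.1, for an NF-κB type motif, GGG and TTTCC parted by 2 bases, and for an interferon response type motif, GAAA and GAAA parted by 2 bases. These letters occur in 23.4%, 1.4% and 2.98% of the 32536 distinct promoter windows of the same length. The windows of *Cd180*, *Ly86*, *Irak2* and *Irak3* held none of these letters. No window of *Lbp*, *Cd14*, *Ly96* or *Ticam2* was searched, which does not mean that these members lack one. The window of *Ticam1* held GAGGAA 30 to 25 bases before the RefSeq start. That of *Myd88* held GAAAGCGAAA, a match of the interferon response type, 40 to 31 bases before the RefSeq start. These matches are in separate windows, so neither overlaps another motif. The *Myd88* window, chr9:119169085-119169334 on the minus strand, lies inside the gene as counted, from 119165000 to 119170477. Its match is therefore not upstream of the whole annotated gene, and no base of this window is printed.

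The first adapter and its kinases rose by smaller amounts. *Myd88*, on chromosome 9 from 119165000 to 119170477, encodes the adapter shared by most Toll-like receptors and stood at 28.1, 27.1 and 26.6 CPM in WT and at 37.4, 37.4 and 36.9 CPM in cKO. The spread within each group was small beside the gap, and the log2 fold change was 0.45 (SE 0.062, edgeR adjusted p = 1.28e-05). *Acaa1a*, which overlaps *Myd88* on the opposite strand with 2991 to 3929 counts, had a log2 fold change of 0.19.

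*Irak2*, on chromosome 6 from 113615428 to 113671987, encodes a kinase-like protein of the signaling complex that prolongs the NF-κB response. It stood at 38.8, 34.2 and 39.1 CPM in WT and at 49.7, 48.0 and 48.9 CPM in cKO, a log2 fold change of 0.39 (adjusted p = 6.47e-05 by edgeR). *Irak3*, on chromosome 10 from 119977553 to 120038035, encodes IRAK-M, a brake on the same complex known mainly from monocytes and macrophages. It stood at 28.7, 29.3 and 34.0 CPM in WT and at 59.9, 54.7 and 55.3 CPM in cKO, a log2 fold change of 0.89 (SE 0.069, edgeR adjusted p = 8.78e-09). Both kinase genes were above WT in every cKO library. The brake differed by more than the promoting member, with 95% confidence intervals from 0.74 to 1.03 for *Irak3* and from 0.26 to 0.52 for *Irak2* on the log2 scale. *Tmbim4*, which overlaps *Irak3* on the opposite strand with 2177 to 3055 counts, had a log2 fold change of -0.046. It did not pass the test (adjusted p = 0.544 by edgeR). With the strand setting of the counting not stated, the level of *Irak3* is less certain.

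The adapters of the interferon arm moved in opposite directions. *Ticam1*, on chromosome 17 from 56576319 to 56583786, stood at 28.1, 26.2 and 30.2 CPM in WT and at 21.7, 24.0 and 21.5 CPM in cKO. Every cKO library was below every WT library, with a log2 fold change of -0.33 (SE 0.078, edgeR adjusted p = 0.00249). *Ticam2*, on chromosome 18, was counted 68, 41 and 55 times in WT and 167, 200 and 198 times in cKO. The cKO libraries were all above WT, with a log2 fold change of 1.84 and a wider 95% confidence interval, from 1.32 to 2.35 (adjusted p = 8.23e-06 by edgeR). *Tmed7*, which overlaps *Ticam2* on the same strand, had 7390 to 10170 counts and a log2 fold change of -0.03 that did not pass the test (adjusted p = 0.611 by edgeR). Reads that fit both genes could have been dropped or shared, so the level of *Ticam2* is uncertain.

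**Figure D2:**
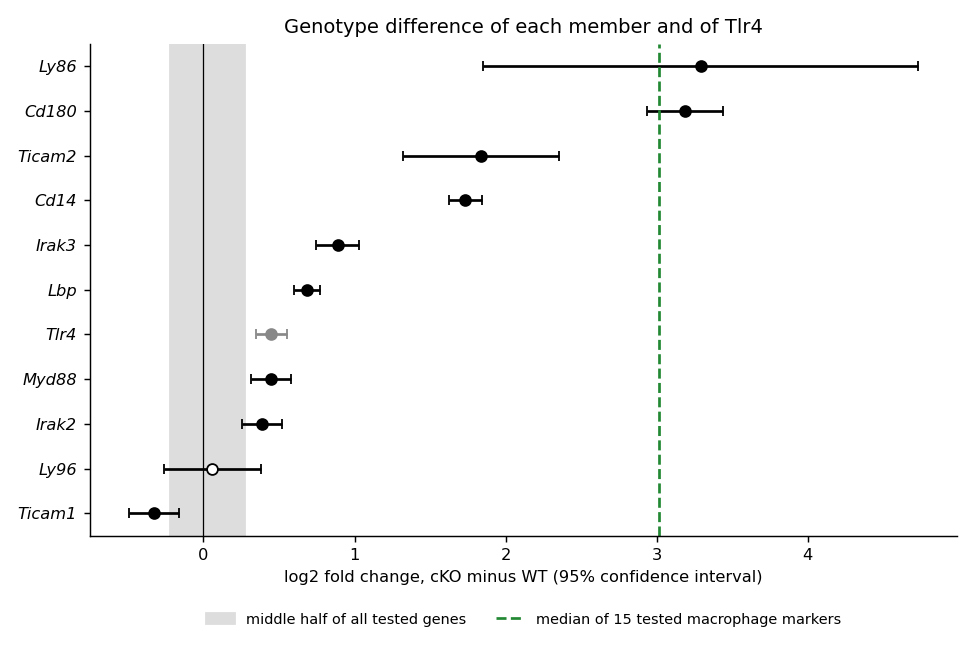
Log2 fold change of cKO against WT (horizontal axis) with its 95% confidence interval for the 10 members and, in grey, for *Tlr4*. Filled points passed the test and the open point (*Ly96*) did not, the shaded band spans the quartiles of all tested genes, and the dashed line marks the median of the 15 tested macrophage markers, 3.01, near *Cd180* and *Ly86*.

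Levels of different genes were compared as RPKM, CPM divided by the deposited gene length in kilobases. In WT, *Cd14* and *Lbp* led with 42.0 ± 3.21 and 38.0 ± 1.24 RPKM (SD, n = 3 each), and *Myd88* followed at 10.6 ± 0.306. *Ticam1*, *Irak2* and *Irak3* came next at 9.41, 8.47 and 8.34 RPKM, and neighbours among these 3 overlapped. Below them stood *Ly96* at 5.89, *Cd180* at 0.526, *Ticam2* at 0.216 and *Ly86* at 0.0206 RPKM, each apart from its neighbours.

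In cKO the order changed in the middle. *Cd14* reached 140 ± 2.05 RPKM and *Lbp* 61.1 ± 1.24, *Irak3* moved to the third place at 15.4 ± 0.773, and *Myd88* and *Irak2* followed at 14.5 and 11.1. *Ticam1* fell to the sixth place at 7.49 RPKM, above *Ly96* at 6.14 and *Cd180* at 4.81. No neighbours in this order overlapped in the 3 libraries. *Cd14* made up 34.0% of the summed RPKM of the members in WT and 53.5% in cKO, while *Lbp* went from 30.8% to 23.4%.

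**Figure D3:**
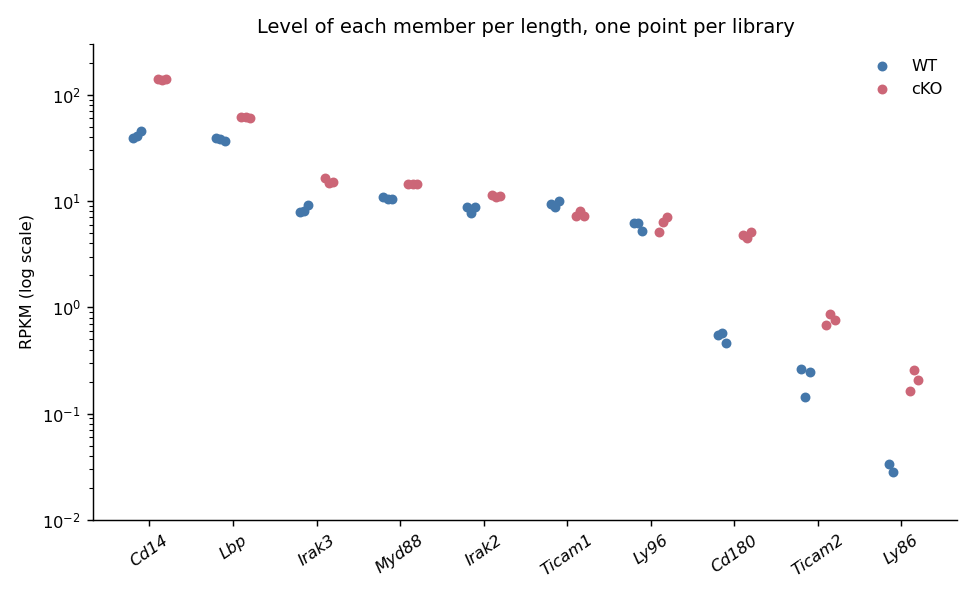
RPKM of each member on a log axis, one point per library, WT in blue and cKO in red, ordered by the cKO mean. *Cd14* and *Lbp* stand above the rest in both genotypes, the points of *Ly96* overlap, and the WT library with 0 counts of *Ly86* is not drawn.

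Ratios of partners within a library do not depend on how libraries are scaled. Per length, *Tlr4* exceeded *Ly96* by 1.83 to 2.19 times in the WT libraries and by 2.35 to 2.95 times in the cKO libraries. *Cd14* exceeded *Ly96* by 6.33 to 8.69 times in WT and by 20.0 to 27.5 times in cKO. RNA of the ligand-delivering protein was therefore higher relative to RNA of the LPS-binding subunit in every cKO library, and protein was not measured here.

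*Tlr4* exceeded *Cd180* by 20.5 to 24.9 times in WT and by 3.14 to 3.44 times in cKO. RNA of the receptor without a signaling domain was thus closer in level to RNA of the signaling one. *Irak3* stood at 0.887 to 1.04 of *Irak2* in WT and at 1.36 to 1.45 in cKO. *Myd88* stood at 1.02 to 1.20 of *Ticam1* in WT and at 1.81 to 2.00 in cKO, and *Ticam1* exceeded *Ticam2* by 35.8 to 60.7 times in WT and by 9.24 to 10.6 times in cKO. Of the 8 ratios compared, the 7 other than *Ly86* to *Cd180* separated the genotypes in all libraries, each with a two-sided p of 0.1 by the exact permutation test, the smallest that 3 against 3 libraries allow, and an adjusted value of 0.114 over the 8. *Ly86* to *Ly96* rose by 3.72 on the log2 scale, or by 2.53 without WT replicate 1.

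Other genes of the pathway were followed in lists set by role. Of 53 tested genes in 5 lists, 24 rose, 7 fell and 22 did not pass (median log2 fold change 0.11), beside 20.1% of all tested genes that rose and 19.2% that fell, shares against which each list below is to be read, and 9 rose and 0 fell with a log2 fold change of at least 1. Around the receptor, 6 of 8 tested genes rose and 1 fell. The integrin genes *Itgam* and *Itgb2* rose by 2.81 and 2.42 on the log2 scale and *Cd36*, a scavenger receptor, by 2.55 (adjusted p = 1.84e-15, 1.07e-15 and 1.38e-16 by edgeR), and all of these are genes that macrophages express. *Hsp90b1*, the chaperone that folds Toll-like receptors, fell by 0.26 (adjusted p = 6.54e-06 by edgeR), and *Bpi*, a relative of *Lbp*, had 0 counts in every library.

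In the list of the Myd88 arm 4 of 11 genes rose and 1 fell, with a median log2 fold change of 0.02. *Pik3ap1*, an adapter of blood cells that links Toll-like receptors to PI3 kinase, went from 10.0 ± 1.72 to 98.6 ± 5.83 CPM (SD, n = 3 each, log2 fold change 3.30), whereas *Peli3* and *Peli2*, ubiquitin ligases, rose by 0.48 and 0.38. *Traf6*, the ubiquitin ligase after the IRAK kinases, fell by 0.20 (adjusted p = 0.02 by edgeR), and *Tirap* and *Irak1* did not pass the test, at -0.07 and 0.11. *Irak4*, of the IRAK family, rose by 0.34 (adjusted p = 0.0291 by edgeR), although its libraries overlapped. In the list of the Ticam1 arm 6 of 9 genes rose and 0 fell. *Irf7*, an interferon regulatory factor, rose by 1.44, and the kinase genes *Tbk1* and *Ikbke* by 0.47 and 0.44 (adjusted p = 6.85e-05, 5.61e-06 and 0.000104 by edgeR). *Ticam1* itself thus fell while genes listed after it rose or did not pass.

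Among 12 shared kinases and NF-κB subunits 3 rose and 3 fell, none by 1 or more on the log2 scale, which is close to the 20.1% and 19.2% over all tested genes. *Ikbkb*, *Ikbkg* and *Map3k8* rose by 0.51, 0.36 and 0.34, and *Tab3*, *Ube2n* and *Map3k7* had log2 fold changes of -0.25, -0.20 and -0.15. Of 13 tested brakes of the pathway 5 rose and 2 fell. *Inpp5d* and *Dok3*, which encode a phosphatase and an adapter of blood cells, rose by 3.03 and 2.99 and *Il1rl1* by 0.53, while the NF-κB feedback genes *Nfkbia* and *Tnfaip3* stood at -0.23 and -0.15 on the same scale (adjusted p = 0.00159 and 0.0334 by edgeR). *Tnip3*, another feedback gene of the list, rose by 1.71 (edgeR adjusted p = 0.000409), so the genes of this kind did not share 1 direction.

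**Figure D4:**
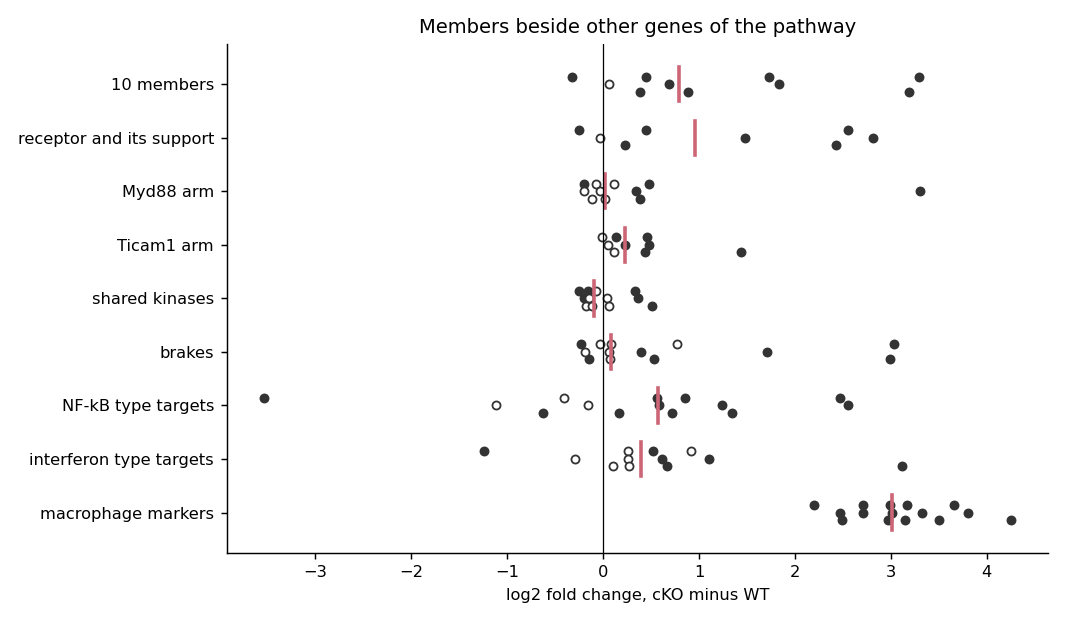
Log2 fold change of cKO against WT (horizontal axis) for every tested gene of each list, filled where the adjusted p-value was below 0.05 and open otherwise, with the median of each list as a red bar. The medians are 0.79 for the members, between -0.10 and 0.96 for the other pathway and target lists, and 3.01 for the macrophage markers.

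Among genes known to be induced through the receptor, 9 of 14 tested NF-κB type targets rose and 2 fell, with a median log2 fold change of 0.57. *Lcn2*, a secreted acute phase protein, went from 1164 ± 28.9 to 1741 ± 50.2 CPM (SD, n = 3 each), and the cytokine gene *Il6* and the chemokine gene *Cxcl2* rose by 1.24 and 1.34 on the log2 scale (adjusted p = 1.86e-11 and 4.63e-10 by edgeR). *Ptgs2*, the inducible cyclooxygenase, fell from 1350 ± 81.9 to 871 ± 78.5 CPM (adjusted p = 4.09e-08 by edgeR), and *Csf2* fell from 0.764 to 0.0661 CPM (adjusted p = 0.000769 by edgeR). Targets of this type therefore did not move in 1 direction.

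Of 12 tested interferon type targets 5 rose and 1 fell, with a median log2 fold change of 0.40 that was the same with *Mx1* at its lower bound. *Ccl5*, a chemokine, rose by 0.61 (adjusted p = 9.59e-06 by edgeR), and *Rsad2* by 1.10, although its libraries overlapped. *Mx1* was at the floor of 3 counts or fewer in every WT library and was at least 5.13-fold higher in cKO, which covers counting error only. *Cxcl10* had a log2 fold change of -1.25 (adjusted p = 0.0117 by edgeR), and *Ifnb1*, which encodes interferon beta, had 0 counts in all 6 libraries.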

How the data were processed

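Counts of 3 WT and 3 cKO libraries of stimulated primary osteocytes were analysed. The authors trimmed paired-end reads, aligned them to GRCm39 with HISAT2 2.0.5, counted them on genes with featureCounts (1.55.0-p3 per the labels, another release in the methods, which also name RSEM), and deposited raw counts per gene without normalization, with gene lengths in bases. From the deposited counts, genes were filtered with filterByExpr, scaled by TMM and tested with edgeR 4.0.16 in R 4.3.3 (glmQLFit, glmQLFTest, genotype as the only term), with Benjamini-Hochberg adjustment over 17146 genes. CPM and RPKM use TMM-scaled library sizes. Ratios had 0.5 added to each count. Totals of 39566835 to 49734046 counts set the precision. Intervals of fold changes come from the edgeR fit and include the spread between libraries, while floors cover counting error only. In counts simulated for this comparison over 17146 genes, 168 of 200 changed genes and 10 unchanged genes were called. The simulated share of changed genes was far below the 39.3% called in the data, so these figures do not give the error rate there.

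All members with their values in each library, *Gsdmd* and *Tlr4* are named. So are up to 3 genes of smallest p per list and direction and markers that define a cell type. *Tirap*, *Irak1*, *Irak4*, *Tnip3*, *Ifnb1*, *Bpi* and overlapping genes were added after their values were seen. Members and lists were chosen with earlier results of these data known. Alternatives used DESeq2 1.42.0, limma-voom (limma 3.58.1), other scalings and filters, halved counts, the replicate number as a block, and each library left out. Same-numbered libraries did not deviate together (correlations of -0.0055, 0.00228 and -0.0103). Public single-cell data used by the study were not analysed here.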

Additional observations from a re-analysis of the deposited data

How the results depend on the processing

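The counts of members that rose and fell were 8 and 1 under DESeq2, limma-voom, both other scalings and each left-out library, and 7 and 1 where each library had to hold 10 counts of a gene or more, which leaves out *Ly86*. With a log2 fold change of at least 1 demanded as well, 4 members rose and 0 fell, 9 pathway genes rose and 0 fell, and 6 target genes rose. Pathway genes that fell numbered 3 to 7 with each library left out in turn, 4 without cKO replicate 2 and 3 without cKO replicate 3. Target genes that fell numbered 5 without the filter and 5 with halved counts, against 3. With the replicate number as a block, 8 members rose and 1 fell, 24 pathway genes rose and 7 fell, and 13 target genes rose and 3 fell, and *Ly86* had a log2 fold change of 3.42. *Ly96* ranged from -0.048 to 0.17 with each library left out, being -0.048 without cKO replicate 3 and -0.023 without WT replicate 3, never past the test. The ratio of *Ly86* to *Cd180* differed by 0.58 on the log2 scale, from -0.61 without WT replicate 1 to 1.22 without WT replicate 3. Other scalings moved the median of all tested genes by -0.011 and 0.022. Depth limits *Ly86* most, at 0 to 6 counts in WT.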

Other observations

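Other cell types were followed with marker lists. Of the neutrophil list 3 of 10 genes were tested and all 3 rose, while *S100a9* had 0 counts in every library. The T and NK cell list had 1 tested gene, which did not pass, and *Cd3e*, *Cd3d* and *Cd3g* were at 0. Of the dendritic cell list 1 of 2 tested genes rose, namely *Itgax*, which macrophages also express, and *Flt3* was at 0. Of the B cell list 1 of 3 tested genes rose (*Cd22*) and 1 fell (*Ebf1*, which stromal cells also express). In the osteocyte list 1 of 4 tested genes rose and 2 fell, in the osteoblast list 2 of 7 rose and 4 fell, in the stromal list 3 of 8 rose and 4 fell, and in the endothelial list 1 of 7 rose and 5 fell.

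The tested genes whose log2 CPM followed a member most closely over the 6 libraries were, for *Cd14*, *Rassf4*, *Abcc3* and *Gnao1* (Pearson r of 0.9998, 0.9998 and 0.9997), for *Cd180*, *Clec4d*, *Rbp4* and *F630028O10Rik* (0.9996, 0.9996 and 0.9995), and for *Ly96*, *8430422M14Rik*, *Stx8* and *R74862* (0.9685, 0.9670 and 0.9666). These libraries fall into 2 groups and share their scaling, so the coefficients for *Cd14* and *Cd180* mostly follow the genotype. Those for *Ly96* were picked as the highest over all tested genes with only 6 libraries, which favors high values. Its first gene, *8430422M14Rik*, stood at only 0.256 CPM in WT and 0.293 CPM in cKO. All these coefficients are a description without a test.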
